A study of Mus musculus with 12 samples.

Results

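Metallothioneins and the zinc handling genes around them are described here in mouse hearts with and without a CCRR transgene and with and without myocardial infarction. The set holds 7 genes, listed by name, of 36981 genes with a probe on the array: the metallothioneins Mt1, Mt2 and Mt3, the metal-sensing transcription factor Mtf1, the zinc exporter Slc30a1 and the zinc importers Slc39a8 and Slc39a14. All 7 genes had a probe, 13 probes in all, and all 7 were among the 19761 genes tested. The members were chosen by name with their log2 signal in the 4 groups already known from an earlier look at these arrays, so the members' own levels and differences are given as description, without p-values.

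Heart RNA was hybridised to Agilent single-colour arrays, 1 array per sample, with 12 samples in 4 groups of 3: hearts of mice carrying the long non-coding RNA CCRR as a transgene after myocardial infarction (TG+MI), transgenic hearts without infarction (TG), wild-type hearts after infarction (WT+MI) and wild-type hearts (WT). The study set the transgene and infarction against each other to ask how CCRR acts in the infarcted heart. The C57/BL6 strain was stated for WT+MI and WT only, so strain and transgene cannot be told apart. The sources used here give neither the promoter that drives the transgene nor the age of the mice, neither how long after infarction hearts were taken nor whether each sample is 1 animal. The p-values therefore measure only how far these samples spread, and that spread may be technical. All mice were kept on an alternating 12 h light and dark cycle, and fresh heart tissue was used. Of the 59305 non-control spots 0 carried the name CCRR, so the transgene could not be checked against its label.

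Metallothioneins are small cysteine-rich proteins that bind zinc and copper. Mt1 and Mt2 are transcribed from neighbouring genes and are induced by zinc through the factor encoded by Mtf1, which binds metal response elements in their promoters, and also by glucocorticoids and by interleukin 6 acting through STAT3. Zinc leaves the cytosol through exporters of the Slc30a (ZnT) family and enters it through importers of the Slc39a (ZIP) family, and the importer gene Slc39a14 is known from mouse liver as an interleukin 6 target.

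The sequences upstream of Mt1 and Mt2 are shown because the results turn on these 2 genes and because the metal response element is the best known feature of their control. Both are from RefSeq on GRCm38.p6, the plus strand of chromosome 8, written 5′ to 3′ and ending at the base before the gene's start, at chr8:94178839-94179088 for Mt1 and chr8:94172368-94172617 for Mt2. Capitals mark matches to the core of the metal response element, searched as TGCACNC and TGCGCNC on both strands.
Mt1: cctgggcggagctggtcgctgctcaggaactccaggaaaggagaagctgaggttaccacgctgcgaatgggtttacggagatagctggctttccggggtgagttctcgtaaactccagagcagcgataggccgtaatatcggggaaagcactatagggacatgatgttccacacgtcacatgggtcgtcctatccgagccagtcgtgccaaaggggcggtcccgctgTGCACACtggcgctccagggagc
Mt2: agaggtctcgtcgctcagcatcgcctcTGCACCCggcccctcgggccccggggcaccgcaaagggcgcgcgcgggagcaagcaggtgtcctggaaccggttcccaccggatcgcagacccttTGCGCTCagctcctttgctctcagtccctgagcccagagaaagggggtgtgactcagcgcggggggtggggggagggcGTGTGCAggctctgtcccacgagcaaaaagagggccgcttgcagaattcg

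The Mt2 stretch holds 3 matches upstream of the start and 1 more after it, within a window of 250 bases before and 50 bases after the start, which makes 4. The Mt1 window holds 3 matches, 1 of them upstream of the RefSeq start and the others at 2 to 8 and 20 to 26 bases from it. Bases past the end of the window were not searched and other starts were not considered, so the counts may miss elements of a promoter. Of 32851 windows of this length in the RefSeq table, 25.7% held 1 or more matches, 1.97% held 3 or more and 0.52% held 4 or more. The Mt3 window holds 1 match, after the start, the Slc30a1 window holds 2, the windows of Slc39a8 hold 0 and 1, and the Mtf1 window holds 0. In all, 6 of the 7 members had a window. Slc39a14 had none, so its upstream sequence was not searched for any of the motifs. The core of the antioxidant response element, searched as TGACNNNGC, has 1 match in the Mt2 window, 1 in the Slc30a1 window and 1 in a Slc39a8 window, against 12.4% of all windows with a match. TTCNNNGAA, the core of a STAT site, has 0 matches in the windows of these 6 members and is found in 8.3% of all windows. The metal response element searches do not overlap the antioxidant match in Mt2. These matches describe letters, not binding.

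All levels below are log2 of the processed signal after subtraction of the array's 75th percentile, so that 0 is the signal at that percentile and a step of 1 is a doubling of signal. Levels of different probes are not compared with each other. The 75th percentile itself lay between 137.8 and 259.7 signal units per array, between 47.0% and 55.2% of probes per array were well above background, and 0 non-control spots were saturated. Arrays correlated with one another at a Spearman coefficient of at least 0.909 over probes. All 6 cardiomyocyte markers were above background on all 12 arrays. Slide 1 held the WT and WT+MI arrays with TG 1 and TG 2, and slide 2, scanned separately, held TG 3 and the TG+MI arrays, so the infarcted groups lay on different slides. With slide as a block, TG against WT rests on TG 1 and TG 2, and TG+MI against TG rests on TG 3 alone. Marker levels of tissues other than ventricle differed between and within groups, and are given beside the results they move with. In RNA of heart tissue, fewer cells of a type, less RNA per cell and another part of the heart sampled cannot be told apart.

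Mt2 was the member with the widest range. Its level was 8.06, 8.44 and 8.80 in TG+MI 1, 2 and 3, 6.52, 7.08 and 6.85 in TG, 8.79, 8.84 and 8.36 in WT+MI, and 4.56, 4.02 and 3.89 in WT. The order of the groups from low to high was WT, TG, TG+MI and WT+MI, and the 2 infarcted groups overlapped while no other neighbours did. Group means were 8.43 ± 0.37 in TG+MI, 6.82 ± 0.29 in TG, 8.66 ± 0.27 in WT+MI and 4.16 ± 0.36 in WT (SD, n = 3 each). The probe lies at chr8:96697371-96697430 on mm9, where exon and UTR annotation was not used here, and was well above background on all 12 arrays.

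Mt2 was 22.7-fold higher in WT+MI than in WT, a log2 difference of 4.51 ± 0.24 (SE from limma, n = 3 each). In TG it was 6.32-fold higher than in WT without infarction, a difference of 2.66 ± 0.24. TG 1 and TG 2, which share slide 1 with WT, gave 2.64. The 2 infarcted groups differed by -0.23 ± 0.24, and TG+MI was 3.07-fold higher than TG, a difference of 1.62 ± 0.24. The infarction difference in transgenic hearts was thus 2.89 ± 0.34 smaller on the log2 scale than that in wild-type hearts, an interaction of -2.89. With slide as a block the difference of TG+MI from TG and the interaction were 1.58 and -2.92 and no longer passed the threshold of the whole-table fit, where TG 3 alone stands for TG.

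**Figure D1:**
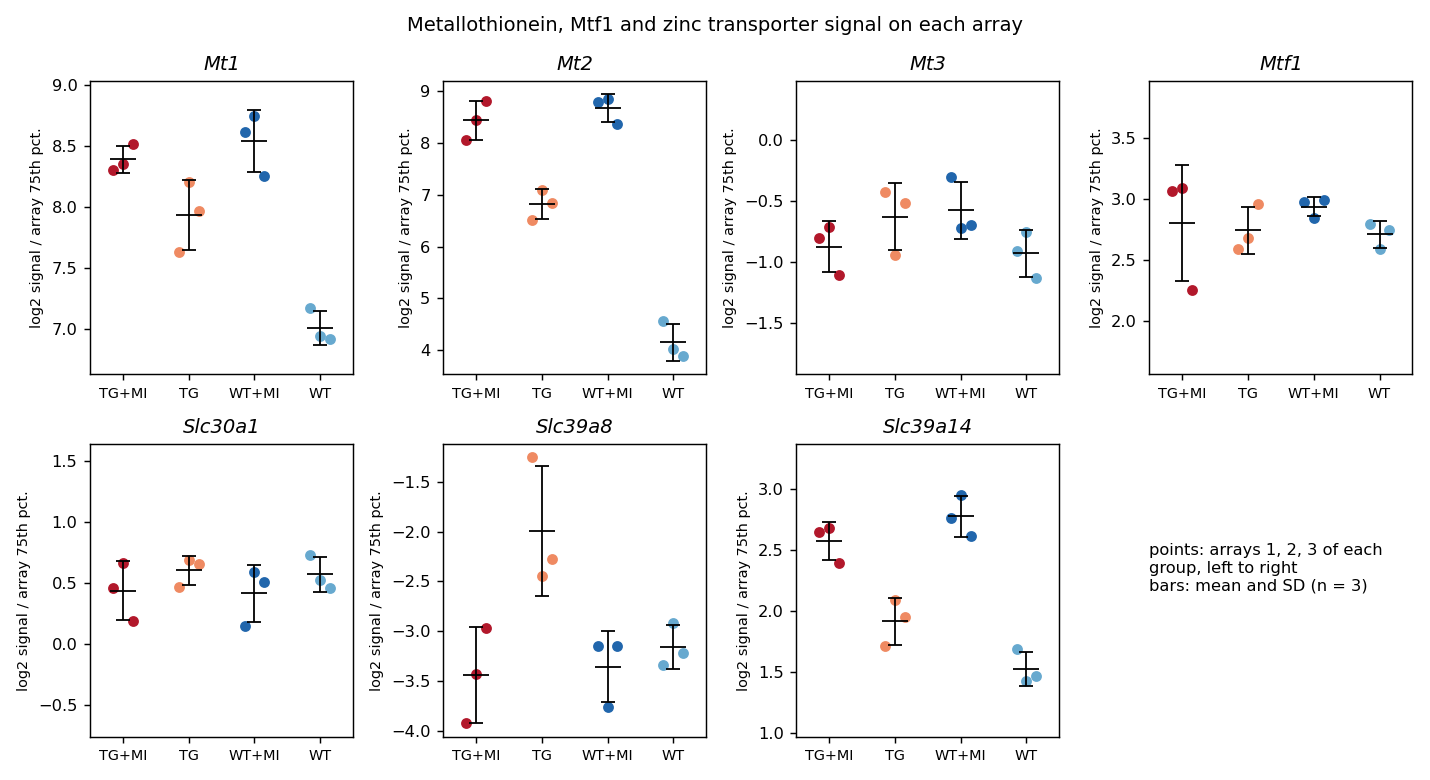
Level on each array for the brightest probe of each of the 7 genes, by group (TG+MI, TG, WT+MI, WT); the y axis is log2 signal relative to the array's 75th percentile, points are arrays 1 to 3 and bars are the mean and SD of 3 arrays. Mt2 ran between 8.06 and 8.84 in the infarcted groups, against 3.89 to 4.56 in WT, while the groups of Slc30a1 overlapped throughout.

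Mt1 followed the same order of groups with a smaller range on its brighter probe, which reports the RefSeq mRNA (chr8:96704165-96704224, mm9). Its level was 8.31, 8.35 and 8.51 in TG+MI, 7.64, 8.21 and 7.97 in TG, 8.61, 8.75 and 8.26 in WT+MI, and 7.17, 6.94 and 6.92 in WT. All WT arrays were below the arrays of the other groups, and all TG arrays were below all TG+MI arrays. Mt1 was 1.53 ± 0.17 higher in WT+MI than in WT and 0.93 ± 0.17 higher in TG than in WT. TG+MI differed from WT+MI by -0.15 ± 0.17 and from TG by 0.45 ± 0.17, and the interaction was -1.07 ± 0.24. The call of TG against WT was lost with slide as a block and on slide 1 alone, at 0.91 in both, and without WT 1, WT 2, WT 3, TG 2 or TG 3 in turn, where the difference was 1.01, 0.89, 0.88, 0.79 and 0.91. The interaction of Mt1 passed in 5 of 12 fits that left out 1 array, with values between -1.22 and -0.94. It did not pass without WT 1, WT 2, WT 3, WT+MI 1, WT+MI 2, TG 2 or TG+MI 1 in turn, nor with slide as a block, at -1.11.

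The other Mt1 probe, for a predicted transcript variant (chr8:96703844-96703903, mm9), had a wider range. Its level was 1.11, 1.63 and 2.43 in TG+MI, 1.26, 1.30 and 1.83 in TG, 2.24, 1.29 and 0.66 in WT+MI, and -1.90, -1.50 and -2.20 in WT. The groups other than WT overlapped one another, and each lay above every WT array. On this probe the difference of WT+MI from WT was 3.26 ± 0.41 and that of TG from WT 3.33 ± 0.41. TG+MI differed from TG by 0.26 ± 0.41, and the interaction was -3.00 ± 0.58. Both Mt1 probes thus had the same sign in WT+MI against WT, TG against WT and the interaction, with larger differences on the second probe. For TG+MI against TG the second probe gave the smaller value, and for TG+MI against WT+MI the signs differed, at 0.32 ± 0.41 on the second probe and -0.15 on the first, each within 1 standard error of 0. Metallothionein genes resemble one another in sequence, and cross-hybridisation of the probes was not tested.

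Mt3, a metallothionein known mainly from the brain, did not follow them. It stood at -0.80, -0.71 and -1.10 in TG+MI, -0.43, -0.94 and -0.52 in TG, -0.30, -0.72 and -0.69 in WT+MI, and -0.90, -0.75 and -1.13 in WT (chr8:96677927-96677986, mm9). The ranges of TG+MI, TG and WT overlapped one another, and each WT+MI array lay above each WT array, the nearest being -0.72 in WT+MI 2 and -0.75 in WT 2. The pairwise differences ran between -0.30 and 0.35, each with a standard error of 0.18, and the interaction was -0.60 ± 0.26. Mt4, the family member known from squamous epithelium and not among the 7 genes, passed the filter and was called in 0 comparisons.

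Mtf1, which encodes the zinc-sensing factor, was measured by 4 probes on chromosome 4. The brightest gave 3.07, 3.09 and 2.25 in TG+MI, 2.59, 2.68 and 2.96 in TG, 2.98, 2.85 and 2.99 in WT+MI, and 2.79, 2.59 and 2.75 in WT (chr4:124521937-124521996, mm9). TG+MI 3 was the lowest of the 12 arrays on it. WT+MI was above WT on every array by this probe, by 0.23 ± 0.20, and the other pairwise differences were between -0.13 and 0.06. Of the other 3 probes, 2 were 0.42 ± 0.15 and 0.43 ± 0.15 higher in WT+MI than in WT and passed the fit over probes, and the third differed by 0.03 ± 0.26, so the probes of Mtf1 did not give 1 answer for infarction.

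Slc30a1, the exporter that moves zinc out across the plasma membrane and a known target of Mtf1, had 1 probe (chr1:193736760-193736819, mm9). Its level was 0.46, 0.67 and 0.19 in TG+MI, 0.47, 0.69 and 0.65 in TG, 0.15, 0.59 and 0.51 in WT+MI, and 0.73, 0.53 and 0.46 in WT. The 4 groups overlapped throughout. Differences in the 4 comparisons lay between -0.17 and 0.03, each with a standard error of 0.16. The 95% interval of WT+MI against WT was -0.50 to 0.19, so a change of Mt2's size lies outside it.

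Slc39a14, which encodes the importer ZIP14, stood at 2.65, 2.68 and 2.39 in TG+MI, 1.71, 2.08 and 1.95 in TG, 2.76, 2.95 and 2.61 in WT+MI, and 1.68, 1.42 and 1.47 in WT (chr14:70703394-70703453, mm9). The order of groups was that of Mt1 and Mt2, with the 2 infarcted groups overlapping each other and no overlap between TG and WT. The gene was 1.25 ± 0.14 higher in WT+MI than in WT, a 2.38-fold difference. TG was 0.39 ± 0.14 above WT, which was not called, and TG+MI was 0.66 ± 0.14 above TG. The last call was lost with slide as a block, at 0.62, and without TG 1, TG+MI 1 or TG+MI 2 in turn, where the difference was 0.55, 0.62 and 0.60. TG+MI differed from WT+MI by -0.20 ± 0.14, and the interaction was -0.59 ± 0.20.

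Slc39a8, which encodes the importer ZIP8, had another arrangement, on a probe close to background. Of its 3 probes, 2 were above background on 0 of 12 arrays and the probe used was so on 11 (chr3:135551169-135551228, mm9). That probe gave -3.93, -3.43 and -2.97 in TG+MI, -1.25, -2.45 and -2.28 in TG, -3.15, -3.76 and -3.15 in WT+MI, and -3.34, -2.92 and -3.22 in WT. All 3 TG arrays stood above the other 9 arrays, with TG 1 apart from TG 2 and TG 3. TG was 1.17 ± 0.33 above WT, which was not called, and TG+MI was 1.45 ± 0.33 below TG, which was called. Under another background correction these were 0.24 and -0.46, neither called, with slide as a block TG+MI against TG was -1.16, and the call was also lost without TG 1, TG+MI 1 or TG+MI 2, at -1.08, -1.21 and -1.45. TG 1 was also the TG array with the highest summed level of the 5 adipocyte markers, at 287.7 against 186.3 in TG 2 and 193.3 in TG 3. It was the highest TG array for the fibroblast sum (305.7 against 256.8 and 254.1), the atrial sum (1495 against 476.5 and 1235) and the liver sum as well. It was not the highest for the other marker lists. In TG+MI 3, where Slc39a8 was at -2.97, the adipocyte sum was 228.7. The part of any of these cells was not tested.

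**Figure D2:**
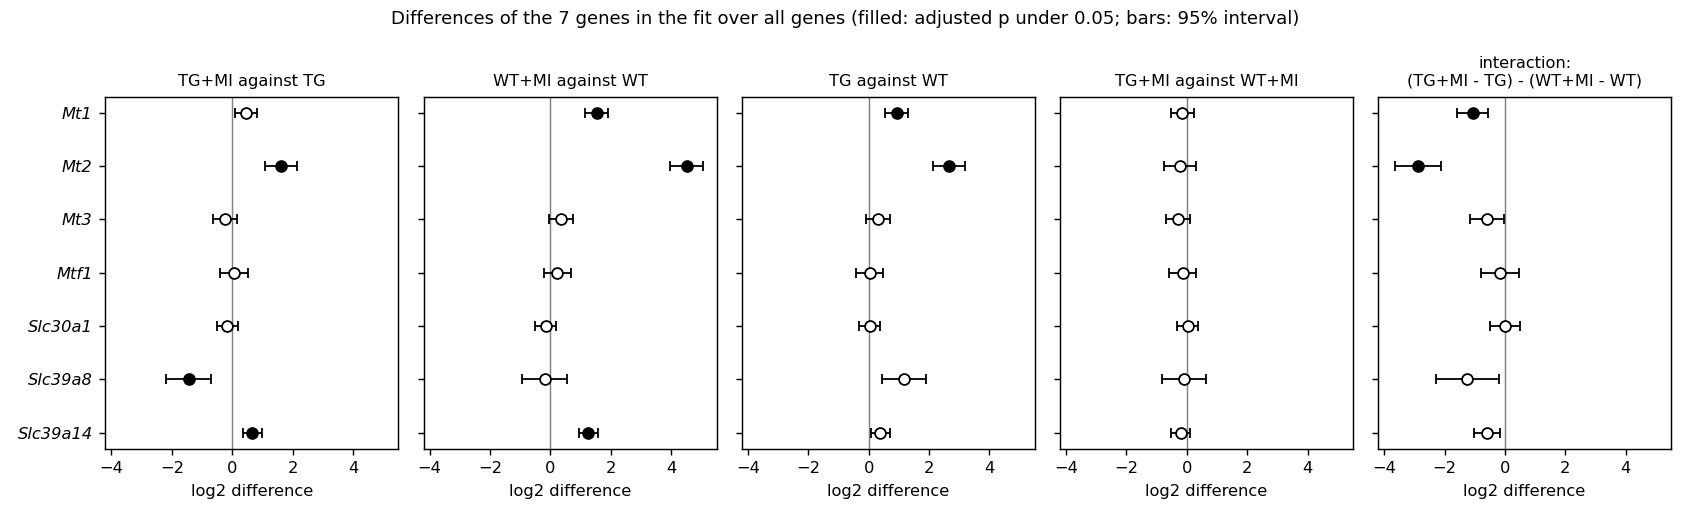
Log2 differences of the 7 genes in 5 comparisons, with 95% intervals from limma over 12 arrays; filled points passed an adjusted p of 0.05 in the fit over all 19761 genes, which describes these genes, since they were chosen with the values known. Mt2 was 4.51 higher in WT+MI than in WT and 1.62 higher in TG+MI than in TG, and none of the 7 was called for TG+MI against WT+MI.

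Counted over the 7 genes, 3 were called higher in WT+MI than in WT (Mt1, Mt2 and Slc39a14) and 0 lower, where 18.6% of all tested genes were called higher, 29.3% lower and 47.9% in either direction. For TG against WT 2 of 7 were called higher (Mt1 and Mt2), where 1.49% of genes were called higher and 2.62% in either direction. For TG+MI against WT+MI 0 of 7 were called by limma, and 0 at an unadjusted p under 0.05, where 7.79% of genes were called higher, 4.38% lower and 12.2% in either direction. For TG+MI against TG 2 were called higher (Mt2 and Slc39a14) and 1 lower (Slc39a8), where 5.21% of genes were called higher and 3.64% lower, or 8.85% in either direction. For the interaction 2 were called lower (Mt1 and Mt2), where 3.05% of genes were called lower and 8.9% in either direction. These shares belong to contrasts that were in view when the genes were listed, and nothing is read from them. The median difference over the 7 genes was 0.35 in WT+MI against WT, where the median of all tested genes was -0.14, and 0.39 in TG against WT, where it was -0.06. TG+MI against WT+MI shares the TG+MI arrays with TG+MI against TG, and TG against WT shares the WT arrays with WT+MI against WT.

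The same groups were compared without the fit, by whether their 3 arrays overlapped. In WT+MI against WT, 5 members were above WT on every array (Mt1, Mt2, Mt3, Mtf1 and Slc39a14), where 25% of tested genes were. In TG against WT, 4 members were above WT on every array (Mt1, Mt2, Slc39a14 and Slc39a8), where 12.7% of tested genes were. In TG+MI against WT+MI all 7 members overlapped, where 34% of tested genes had groups that did not. In TG+MI against TG, 3 members were above TG on every array (Mt1, Mt2 and Slc39a14), where 17.2% of tested genes were, and 1 was below (Slc39a8), where 12.8% were.

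The genes nearest to each member over the 12 arrays, by the root mean square difference of profiles centred on their own means, were found among all tested genes. Slc39a14, whose own profile has a root mean square of 0.52, lay nearest to Tgm2 at 0.08 and Stat3 at 0.12, followed by a transcript without a gene name. Mt1, with a root mean square of 0.62, lay nearest to an unnamed intergenic transcript at 0.20, then Qsox1 at 0.21 and Midn at 0.22. Mt2, at 1.82, lay at 0.36 from Pip5k1a, between 2 unnamed transcripts. Mt2 and Mt1 were 1.21 apart by this measure. Over 19761 genes, Mt1 ranked 227 by nearness to Mt2, and Mt2 ranked 18733 by nearness to Mt1. The measure counts the size of a profile's range as well as its shape. Mt2's root mean square was 1.82 against 0.62 for Mt1, so these ranks do not tell whether the 2 profiles differ in shape. Mt3 was nearest to Polm and Zfp429, Mtf1 to Vrk3, Rbm28 and Sec24c, Slc30a1 to Slc25a40, Neurl4 and Cstf2t, and Slc39a8 to Sort1, Mfap4 and Adamts12.

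Of 21 other Slc30a and Slc39a genes, 14 passed the filter. They were listed with earlier results of these data known, so their counts and p-values are description. In WT+MI against WT limma called 7 of the 14 higher, where 18.6% of all tested genes were, and 1 lower, where 29.3% were. The 8 calls in all stand beside 47.9% of genes called in either direction, with a median difference of 0.50 against -0.14 over all genes. The importer gene Slc39a6 was 1.93 ± 0.19 higher (limma adjusted p = 9.66e-05), with 1.99, 1.57 and 1.48 in WT+MI and -0.20, -0.28 and -0.27 in WT. Slc39a4, which encodes an importer known from intestine, was 1.76 ± 0.39 higher (limma adjusted p = 0.00439), though its probe was above background on 2 of 3 WT arrays. Slc30a4, an exporter gene, was 0.94 ± 0.14 higher (limma adjusted p = 0.000544), and the importer gene Slc39a1 was 0.90 ± 0.12 higher (limma adjusted p = 0.000387). Slc39a7, Slc39a11 and Slc39a13 were higher by 0.73, 0.67 and 0.71. Slc30a9, which is named as a zinc transporter of mitochondria, was 0.71 ± 0.12 lower (limma adjusted p = 0.00102). Of the 7 called higher 6 were among the 9 tested importers, and of the 5 tested exporters 1 was called higher and 1 lower.

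In TG against WT, 0 of the 14 were called by limma and 1 had an unadjusted p under 0.05, with differences between -0.32 and 0.42. Among TG+MI and TG hearts, limma called 3 higher in TG+MI: Slc39a6 by 0.84 ± 0.19, Slc30a4 by 0.53 ± 0.14 and Slc39a1 by 0.44 ± 0.12, where 5.21% of all genes were called higher. This count was 0 with no filter, with the 2 groups alone and without TG 2, TG 3, TG+MI 1 or TG+MI 2 in turn, and 1 with normexp or the replicate block and without WT 1, WT 3, WT+MI 2 or TG 1. Against WT+MI, TG+MI had Slc39a4 1.90 ± 0.39 lower, Slc39a6 0.67 ± 0.19 lower and Slc30a9 0.43 ± 0.12 higher, where 4.38% of all genes were called lower and 7.79% higher. With slide as a block, limma called 0 in both comparisons, and 3 and 1 had an unadjusted p under 0.05 in TG+MI against TG and in TG+MI against WT+MI. The blocked differences were 0.92 for Slc39a6, 0.60 for Slc30a4 and 0.47 for Slc39a1 in TG+MI against TG, and -1.94 for Slc39a4, -0.55 for Slc39a6 and 0.44 for Slc30a9 in TG+MI against WT+MI, with larger standard errors. The 3 calls against WT+MI were also absent with only the arrays of the 2 groups in the fit, and without WT+MI 1, TG+MI 1 or TG+MI 3 in turn.

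**Figure D3:**
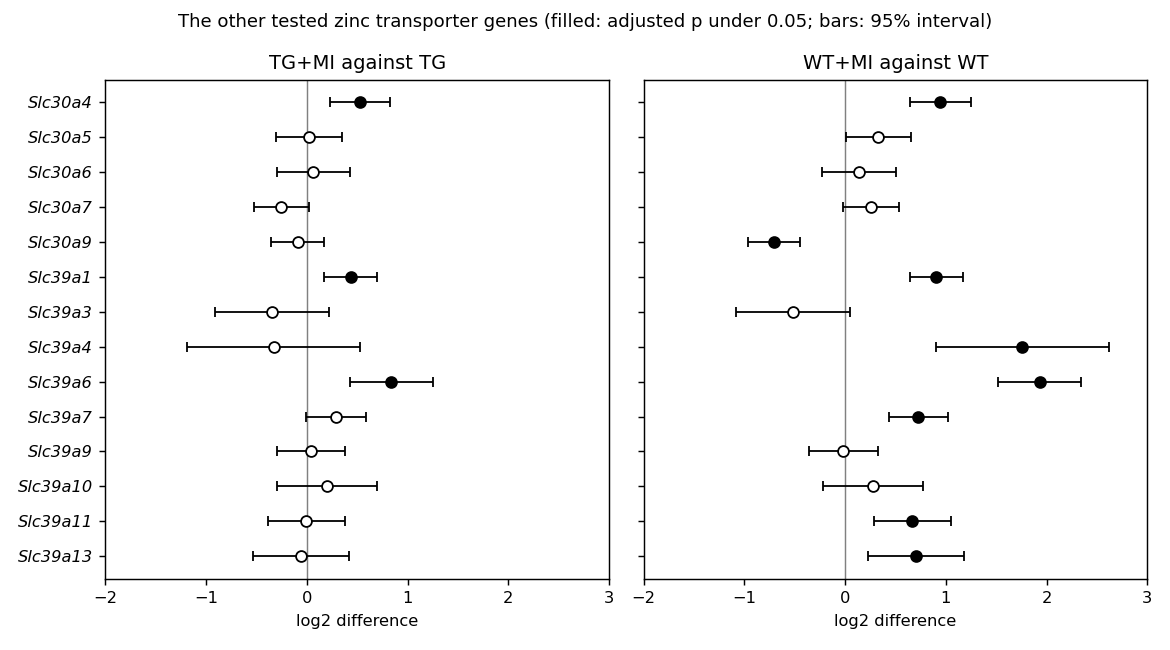
Log2 differences of the 14 other tested zinc transporter genes in TG+MI against TG and in WT+MI against WT, with 95% intervals from limma; filled points passed an adjusted p of 0.05. Slc39a6 was 0.84 higher in TG+MI than in TG and 1.93 higher in WT+MI than in WT.

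Known targets of Mtf1 other than the members, and copper genes, were mixed. These lists too were chosen with earlier results of these data known, so their counts and p-values are description. Of 8 genes listed as regulated by Mtf1, 5 were called higher and 1 lower in WT+MI than in WT by limma, beside 18.6% and 29.3% of all genes, with a median difference of 0.73. The list was not sorted by direction of regulation, so neither the counts nor the median have an expected sign. Slc39a10 is on this list and also among the other zinc transporters. The growth factor gene Pgf was 2.63 ± 0.57 higher (limma adjusted p = 0.00414), Gclc, which takes part in making glutathione, was 0.74 ± 0.21 higher (limma adjusted p = 0.0154), and the selenoprotein gene Selenoh was 0.65 ± 0.15 lower (limma adjusted p = 0.00545). Hamp, the hepcidin gene, was on 0 WT arrays above background, so its differences are bounds: at least 13.8-fold higher in WT+MI and at least 32.6-fold higher in TG, each against WT, and it has a near-identical paralog that the probe may also detect. In TG against WT it was the 1 of 8 called, with a median over the list of 0.13. Hamp varied within groups: -2.57, -0.53 and -1.45 in TG+MI, 2.02, -0.11 and 1.78 in TG, and 2.71, -0.64 and -2.09 in WT+MI. Myl7, an atrial marker, was at 0.59, 4.70 and -4.28 in TG+MI and 8.03, 5.96 and 7.97 in TG. It was at 6.68, -4.47 and -4.02 in WT+MI and -0.91, -0.97 and -4.93 in WT. The part of atrial tissue in the Hamp signal was not tested. Of 10 copper genes, limma called 1 higher in WT+MI than in WT (the copper pump gene Atp7a, by 0.97 ± 0.21) and 5 lower, beside the same shares, and 0 in TG against WT, where 2 had an unadjusted p under 0.05. Between TG+MI and WT+MI, limma called 0 of the 8 Mtf1 targets, with 2 at an unadjusted p under 0.05, and 1 of the 10 copper genes, the copper pump gene Atp7b, which was 0.62 ± 0.11 higher in TG+MI. Between TG+MI and TG, limma called 0 on both lists, with 3 Mtf1 targets and 2 copper genes at an unadjusted p under 0.05.

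Glucocorticoid-induced and interleukin 6 induced genes, the 2 other routes known to raise metallothionein transcripts, were counted in the same comparisons. Both lists were drawn up with results of these arrays known, so their counts and p-values are description and not independent tests. In TG against WT, limma called 10 of 12 glucocorticoid-induced genes higher and 0 lower, where 1.49% of all genes were called higher, with a median difference of 1.93. Dusp1, a phosphatase gene, was 2.07 ± 0.23 higher (limma adjusted p = 0.00376), with 5.61, 6.20 and 5.63 in TG and 3.76, 3.78 and 3.69 in WT. Fkbp5, a chaperone gene of the glucocorticoid receptor, was 1.97 ± 0.37 higher (limma adjusted p = 0.0247), Ddit4 was 2.39 ± 0.45 higher (limma adjusted p = 0.0237) and Zbtb16 2.59 ± 0.53 higher (limma adjusted p = 0.0331). In the same comparison 2 of 12 interleukin 6 and STAT3 induced genes were called higher, Stat3 by 0.46 ± 0.11 and Cebpb by 1.94 ± 0.25, and the call of Stat3 was lost with slide as a block and on slide 1 alone, at 0.44 in both. The count of 10 glucocorticoid-induced genes was 1 with slide as a block, 8 on slide 1 alone, 6 with probes averaged and 1 with no filter, and 1 without WT 1, WT 2, WT 3, TG 2 or TG 3 in turn, 5 without TG 1 and 12 without TG+MI 3.

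In WT+MI against WT, limma called 11 of 12 interleukin 6 and STAT3 induced genes higher, where 18.6% of all genes were, with a median difference of 2.45. Socs3, the feedback inhibitor of STAT3 signalling, was 4.20 ± 0.29 higher (limma adjusted p = 2.39e-05), and Stat3 itself 1.42 ± 0.11 higher (limma adjusted p = 3.26e-05). Of the 12 glucocorticoid-induced genes, 8 were called higher and 1 (Klf9) lower. After infarction in transgenic hearts (TG+MI against TG), 9 of 12 interleukin 6 and STAT3 induced genes were called higher, where 5.21% of all genes were, with a median of 1.84, and 4 with slide as a block, against 1 glucocorticoid-induced gene (Cdkn1a) higher and 2 (Dusp1 and Tsc22d3) lower. Between TG+MI and WT+MI, limma called 1 gene on each list, Tsc22d3 higher by 0.66 ± 0.19 and Timp1 lower by 1.78 ± 0.50 in TG+MI, and 0 of all 19761 genes passed there with slide as a block, with 1469 at an unadjusted p under 0.05. These 2 lists were drawn up with results of these arrays known, and they do not show which route acted on Mt1 or Mt2.

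**Figure D4:**
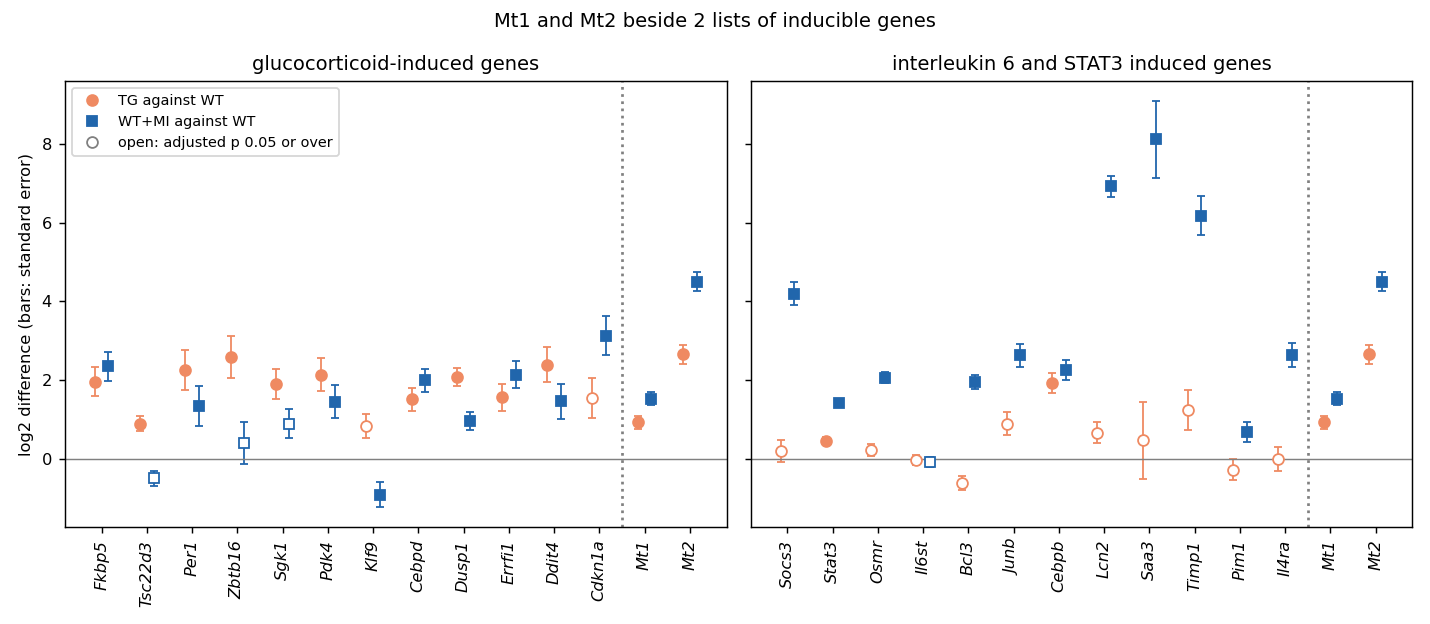
Log2 differences (points) with standard errors (bars) for 12 glucocorticoid-induced genes and 12 interleukin 6 and STAT3 induced genes, with Mt1 and Mt2 at the right of each panel, in TG against WT (circles) and WT+MI against WT (squares); open points did not pass an adjusted p of 0.05. Mt2 was 2.66 higher in TG and 4.51 higher in WT+MI, each against WT.

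Markers of other tissues and cell types moved with these comparisons, and values are summed linear levels over a marker list. In WT+MI and WT, 5 neutrophil markers summed to 305 to 500.9 in WT+MI and 139.5 to 156.5 in WT, with 4 of 5 called higher, and 5 of 5 were above background in WT+MI and 3 to 4 in WT. The 5 macrophage markers summed to 125.6 to 216.8 in WT+MI and 89.31 to 129.5 in WT, which overlap, with 1 of 5 called higher. The fibroblast sum was 120.3 to 161.6 in WT+MI and 205.7 to 234.7 in WT, with 2 of 5 called lower. The endothelial sum was 29.06 to 33.75 in WT+MI and 46.03 to 48.22 in WT, with 2 of 4 called lower, and the erythroid sum 478.7 to 600.4 in WT+MI and 671.4 to 1106 in WT, with 2 of 4 called lower. Atrial markers summed to 234.9 to 676.5 in WT+MI and 54.45 to 55.92 in WT, with 1 of 4, Nppa, called higher. Nppa made up nearly all of the sum in WT and in WT+MI 2 and 3. In WT+MI 2 and 3 Myl7 was at -4.47 and -4.02 and Sln at -5.62 and -5.14, against 6.68 and 6.11 in WT+MI 1. Adipocyte markers summed to 144.4 to 156.6 in WT+MI and 167.3 to 191.3 in WT, with 1 of 4 tested, Lep, called lower. Fabp4 made up nearly all of the adipocyte sum on these arrays. Adipoq was above background on 1 WT+MI array and 1 WT array, and Plin1 on 0 arrays of these 2 groups. The part of these cells in the metallothionein levels was not tested.

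Liver markers, of a tissue rich in metallothionein, summed to 9.87 and 7.26 in WT+MI 1 and 2 and to at most 0.492 on the other 10 arrays, and Apoa1 was above background on 0 arrays. With WT+MI 1 and 2 both left out, in a fit chosen after seeing the data, WT+MI 3 stood above WT by 4.20 for Mt2, 1.24 for Mt1 and 1.09 for Slc39a14, where the lone array is assumed to vary like the other groups.

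In TG and WT, 4 atrial markers summed to 476.5 to 1495 in TG and 54.45 to 55.92 in WT, with 2 of 4 called higher, and 4 of 4 were above background on each TG array and 2 to 4 on the WT arrays. The cardiomyocyte sum was 1679 to 2098 in TG and 2213 to 2937 in WT, the fibroblast sum 254.1 to 305.7 in TG and 205.7 to 234.7 in WT, the endothelial sum 28.92 to 35.55 in TG and 46.03 to 48.22 in WT, and the erythroid sum 295.3 to 530 in TG and 671.4 to 1106 in WT. Limma called 0 genes on these 4 lists. The adipocyte sum was 186.3 to 287.7 in TG and 167.3 to 191.3 in WT, and the macrophage sum 126.2 to 142.3 and 89.31 to 129.5. Both overlapped, with 0 genes called. In group means of TG and WT, Cfd was at 3.83 and -1.37, Adipoq at 0.20 and -3.75 and Plin1 at -2.07 and -4.85. Fabp4 was at 7.53 and 7.45, and Lep at -1.24 and -1.07. Adipoq was above background on 3 TG arrays and 1 WT array, and Plin1 on 1 and 0. The neutrophil sum was 115.7 to 126.2 in TG and 139.5 to 156.5 in WT, with 1 of 5 called lower. After infarction the neutrophil sum was 147.2 to 162.8 in TG+MI and 305 to 500.9 in WT+MI, with 3 of 5 called lower, while against TG 4 of 5 were called higher. Csf3r made up most of the neutrophil sum in WT, TG and TG+MI, with group means of 7.10, 6.91 and 6.95. The means of the other 4 markers were higher in TG+MI than in WT, for S100a8 2.21 against 0.24. The fibroblast sum in TG+MI was 163.4 to 203, above WT+MI and below TG on every array, and the atrial sum was 75.02 to 322.4, below TG on every array. The macrophage sum was 56.25 to 127.5 in TG+MI, lowest in TG+MI 3, and 125.6 to 216.8 in WT+MI. Cd68 was called lower there, and C1qa was called lower in TG+MI than in TG. Of 4 skeletal muscle markers, Acta1 was called higher in TG than in WT. Ckm was called lower in WT+MI than in WT and higher in TG+MI than in WT+MI. The part of these tissues in the levels of the 7 genes was not tested.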

How the data were processed

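RNA of 12 mouse hearts was measured on Agilent single-colour arrays read with Feature Extraction 12.0.3.1, per the file headers. The deposited intensity is the background-subtracted Cy3 signal on a linear scale, and the authors also deposited a value table on a log2 scale, whose columns rank probes as the intensity of their own arrays do (Spearman at least 0.999995, and at most 0.962 with another array); its normalization is not stated, and its column medians lie between 4.226 and 4.237. limma is named, with no role, in the submitters' processing notes.

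Intensities were taken to log2, spots of a probe averaged without outlier spots (49 probes left out), and the 75th percentile of each array's non-control probes subtracted. A gene was represented by its brightest probe and tested if in 1 group or more all 3 arrays had it well above background, 19761 of 36981 genes. Names were updated through a RefSeq table: 32994 probes matched by accession, 10224 by symbol and 520 by synonym, and 12867 kept the name in the files. Probe coordinates are on mm9, and promoter coordinates on GRCm38.p6. Groups, taken from the labels, were compared with limma 3.58.1 in R 4.3.3 (data.table package, version 1.17.8), with 1 group-means model over 12 arrays and Benjamini-Hochberg adjustment over all tested genes, at 0.05. Every adjusted p in the text is limma's. WT+MI 2 and 3 carry another title prefix and were placed by their characteristics. The number of arrays limits the precision.

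On simulated data for TG against WT with 19761 genes, 73% of changes of 1 log2 unit and 93% of changes of 2 were recovered, with 4 false calls. The members and lists were chosen with earlier results of these data known, so p-values of list genes are not independent tests. Named genes are the members, other list genes that passed in a comparison, and the 3 nearest genes of each member. Alternatives were normexp (offset 50), quantile normalization, the value table, both filters, other uses of probes, slide and replicate blocks, slide 1 alone, the 2 groups alone, each array left out and, chosen after seeing the data, WT+MI 3 as the only WT+MI array. Metallothionein proteins were not analysed here.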

Additional observations from a re-analysis of the deposited data

Results flagged for a closer look

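The infarction difference of transgenic hearts was compared with that of wild-type hearts by the interaction term of the fit over all genes, and the genes below passed an adjusted p of 0.05 in limma. Among the 7 listed genes these were Mt1, at -1.07 on the log2 scale, and Mt2, at -2.89, both given as description, since the genes were listed with these values known. Among the other zinc transporters Slc39a4 was at -2.09 and Slc39a6 at -1.09, and Slc30a9 was at 0.61. Among the listed targets of Mtf1, Hamp was at -6.53 or lower, with the WT arrays, where its probe was below background, set at the lowest signal above background, and Csrp1 at -1.20. Among the copper genes Atp7b was at 0.75. Among the glucocorticoid-induced genes Dusp1 was at -1.99 and Errfi1 at -1.97. Among the interleukin 6 and STAT3 induced genes Stat3 was at -0.65, Cebpb at -2.48, Lcn2 at -1.38 and Timp1 at -3.02. With slide as a block 3 of all 19761 genes passed in the interaction, and 0 of the 7 listed genes and 0 of the other zinc transporters did, with 3 of each at an unadjusted p under 0.05 in limma.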

How the results depend on the processing

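In WT+MI against WT, Mt1, Mt2 and Slc39a14 passed under all 24 alternatives, and the 9464 called genes, the 3 members, the 8 other zinc transporters and the 11 interleukin 6 genes stayed within 1.5 times except with WT+MI 3 as the only WT+MI array, added after seeing the data, at 3476 genes and 5 transporters; leaving out 1 array gave 7235 to 10424 genes, 3 members in each fit, 7 to 11 transporters and 10 to 11 interleukin 6 genes. The alternatives reuse the arrays whose values were known when the members were listed. For the members they describe only how a call depends on processing. Slc39a9 turned from near 0 to 0.88 with the mean of all probes, the 1 sign change with a call. In TG against WT, with 518 genes, 2 members, 0 other zinc transporters and 10 glucocorticoid-induced genes, the genes were 205 with no filter, 320 with slide as a block, 904 with the 2 groups alone and 342 with the replicate block; members were 1 with no filter, slide as a block or slide 1 alone; glucocorticoid-induced genes were 1 with no filter, 6 with the mean of all probes, 1 with slide as a block and 5 with the replicate block. Leaving out 1 array gave 137 to 866 genes, 1 to 2 members, 0 transporters and 1 to 12 glucocorticoid-induced genes. In TG+MI against WT+MI, 2405 genes became 14 with no filter and 0 with slide as a block or the 2 groups alone (limma, with 1469 and 4774 at an unadjusted p under 0.05), and 3 transporters became 0 in those 3 settings; leaving out 1 array gave 0 to 3524 genes (0 without TG+MI 1, 45 without WT+MI 1, 4 without TG+MI 3), 0 members and 0 to 6 transporters. In TG+MI against TG, 1749 genes became 955 with no filter, 119 with slide as a block and 690 with the 2 groups alone; 3 members became 1, 0 and 1 there; 3 transporters became 0 in each, and 1 with normexp or the replicate block; 9 interleukin 6 genes became 4 with slide as a block. Leaving out 1 array gave 690 to 2286 genes, 1 to 3 members, 0 to 3 transporters and 8 to 9 interleukin 6 genes. In the interaction, 1758 genes became 55 with no filter, 3 with slide as a block and 1156 with the replicate block; 2 members became 1 with no filter and 0 with slide as a block; 3 transporters became 1 with normexp, quantile normalization or the authors' table and 0 with no filter or slide as a block. Leaving out 1 array gave 58 to 2691 genes, 1 to 2 members and 0 to 5 transporters. The cause of these shifts was not tested, beyond fewer samples or more genes tested. Same-numbered samples deviated together weakly or not at all (correlations between -0.258 and 0.093). With 3 samples per group this cannot decide whether the numbers pair samples. In WT+MI against WT the same-numbered correlations were 0.067 to 0.084 and the others were negative. The replicate block left 3, 2, 0, 3 and 2 members called in the 5 comparisons, in the order above. Of 779 values of the members under alternatives, 747 kept their side of the threshold and 32 lost it. Many of the 779 belong to differences not called in the main fit, which had no call to lose. In TG against WT, Mt1 passed in 15 of 23 alternatives and Mt2 in 23 of 23. In TG+MI against TG, Mt2 passed in 21 of 22, Slc39a14 in 16 of 22 and Slc39a8 in 14 of 21. In the interaction, Mt1 passed in 12 of 21 and Mt2 in 20 of 21. Faint probes, such as that of Slc39a8, limit what can be read of their size.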
